A study of Mus musculus with 40 samples.

Results

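The transcripts of the cytosolic ribosomal protein genes were measured in the renal cortex of diabetic and non-diabetic mice. Members were chosen by symbol, as Rpl or Rps followed by a digit, or Rpsa, Rplp0, Rplp1, Rplp2 or Fau, without symbols that mark a pseudogene (-ps) and without the S6 kinases (Rps6k). This gave 95 of the 55401 genes of the deposited table. They were 43 proteins of the large subunit, 32 of the small subunit, 3 of the stalk and 17 paralogs or related symbols, and the first 3 classes (78 genes) are called core genes. The mice were C57BL/6J, described as male. Akita mice, heterozygous for a mutant Ins2 allele that causes diabetes through loss of insulin, were compared with wild-type (WT) littermates. The labels give treatment from 6 to 22 weeks of age for every library, in a text that names the agents of the ethanol arm alone. In the ethanol arm, WT and Akita mice received either the vehicle (10% ethanol in water) or MitoGamide, a mitochondria-targeted dicarbonyl scavenger, at 10 mg/kg by daily oral gavage for 16 weeks. In the water arm, WT and Akita mice received either water or MitoQ, a mitochondria-targeted antioxidant, and the route and dose of this arm are not given in the sources used here. Each of the 8 groups held 5 mice, with 1 library each. Every cell of an Akita mouse carries the allele, and the cortex is a mixture of cell types. The 10 proximal tubule markers examined were all detected, at a summed 6129 to 28150 CPM (counts scaled to a common library size, for markers the library total) per library, whereas 3 inner medulla markers summed to 2.83 to 75.2 CPM.

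Ribosomal proteins join ribosomal RNA in the small subunit, which decodes the mRNA, and the large subunit, which forms peptide bonds. The stalk on the large subunit recruits translation factors. Most of their mRNAs start with a cytosine followed by a run of pyrimidines, the 5′ terminal oligopyrimidine (TOP) motif, through which mTORC1 controls their translation.

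Sequences near the start site are shown for 7 of the genes named here in which a pyrimidine run was found. Such a run need not lie at the start itself. Runs of 7 or more C or T opening with C were searched, and the longest of each gene is in capitals. The search went from 25 bases before to 50 after the RefSeq start (GRCm38.p6).
Rps15: agcccgtaCTTCCTTTTCCgagtaaccgcc
Rps21: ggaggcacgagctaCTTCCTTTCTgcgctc
Rps2: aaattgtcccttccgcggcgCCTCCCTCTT
Rps6: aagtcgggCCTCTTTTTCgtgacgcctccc
Rpl26: gtgtagttCTCTTTCCTTTTgcggccatcg
Rpl18: gcaggccgCTCTTTCCCCgcccactccggc
Fau: cgcccccaCTTCTTCCTCTTTCTTgactcc

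These stretches lie at chr10:80292448-80292477 for Rps15, chr2:180257399-180257428 for Rps21, chr17:24720083-24720112 for Rps2, chr11:68901581-68901610 for Rpl26, chr7:45718064-45718093 for Rpl18 and chr19:6057936-6057965 for Fau, all on the plus strand, and at chr4:86857347-86857376 on the minus strand for Rps6. Relative to the RefSeq start, the runs opened at -3 for Fau, -1 for Rps6, 2 for Rpl18, 24 for Rpl26, 26 for Rps15, 35 for Rps21 and 41 for Rps2. Those of Rpl26, Rps15, Rps21 and Rps2 thus lay past that start and not at it. The run of Rps2 reached the end of the searched window. RefSeq entries were matched for 70 members, 58 of them core genes. A run was found on the sense strand of 46 of these 58 core genes (79.3%) and of 9444 of 27025 genes overall (34.9%). On the opposite strand the shares were 24.1% and 39.0%. The letters CTTTCC were found on the sense strand of 29.3% of the core genes and 4.09% of all genes, and CTTCCT, which can share letters with it, on that of 25.9% and 6.44%. The motif letters were chosen after these sequences had been seen, and a match describes letters and is not a mapped start of transcription.

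Of the 95 genes, 88 or 89 had the mean of 10 estimated counts over a comparison that the test required. Those left out were related symbols, among them Rpl10l and Rps12l1, which were listed at 0 in all 40 libraries. Per transcript length (TPM, a level scaled by transcript length and library, median over all libraries), Rpl41, the smallest large-subunit protein, ranked first at 489, followed by Rps2 at 399, Rplp1 at 350 and Rplp0 at 326. The lowest core gene was Rpl12 at 5.69. Among paralogs, Rps27l reached 137 TPM, whereas Rpl3l, the striated-muscle paralog of Rpl3, stood at 0.88 TPM. The core genes lay on 20 chromosomes, with a median transcript length of 882 bases against 3074 for 13925 other tested coding genes.

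The summed level of the 95 genes separated the arms more than the treatments. It was 8694 ± 588 CPM in WT and 9258 ± 634 in Akita mice on the ethanol vehicle (SD, n = 5), and 8821 ± 847 and 9918 ± 509 with MitoGamide. In the water arm it was 5850 ± 2611 in WT and 6219 ± 2713 in Akita mice on water, and 5672 ± 1820 and 6404 ± 2066 with MitoQ. The groups of the ethanol arm overlapped, and the water arm held both libraries at the ethanol arm's level and libraries far below it. Library depth ranged from 9106654 to 24321424 estimated counts, with a median of 15638394. A total of 9 libraries had a median correlation with the others under 0.95, namely Akita MitoGamide 5, WT water 2, 3 and 4, Akita water 2, 3 and 5, WT MitoQ 3 and Akita MitoQ 4.

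**Figure D1:**
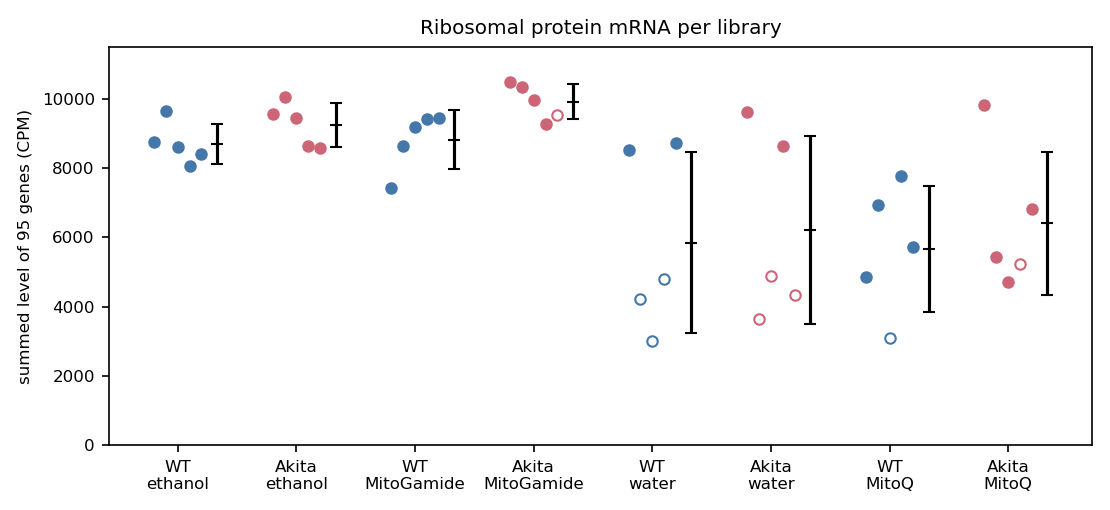
Summed level of the 95 genes (CPM, TMM scale) in each of the 40 libraries by group, blue for WT and red for Akita mice, with open circles for the 9 libraries that stood apart and bars for the mean ± SD (n = 5). WT mice on water ranged from 2992 to 8717 CPM, and WT mice on the ethanol vehicle from 8072 to 9644 CPM.

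With diabetes on the ethanol vehicle, the share of members called was near that of all genes, and the 2 members that fell were related symbols. The test called 12 of 88 members (13.6%), 10 higher and 2 lower, where 16.4% of 17747 genes were called, 8.18% higher and 8.22% lower. By DESeq2 16 of 88 were called, against 17.6% of genes. The median log2 fold change was 0.10 over members and -0.002 over all genes, and 72 of 88 members were above 0. Other short coding genes were above 0 too, with a median of 0.13 under 600 bases (members 0.19) and 0.06 in the next length class, from 600 bases to under 1000 (members 0.09), whereas at 1000 bases and over it was 0.005 (members 0.08), and with an offset for transcript length the member median was 0.08, with 8 called, against 15.9% of genes. Of the large subunit 3 of 43 rose, of the small subunit 6 of 32, and of the stalk 1 of 3, and 2 of 10 related symbols fell. The groups of 5 did not overlap for 4 members, against 13.0% of all genes. The proximal tubule markers summed to 23300 to 28150 CPM in WT and 14030 to 18070 CPM in Akita mice. Of 12 other marker lists, those of the distal convoluted tubule (685.1 to 1348 CPM in WT, 1230 to 1512 CPM in Akita mice) and liver (581.4 to 784.0 and 748.7 to 1141 CPM) lay higher with some overlap, as did those of podocytes (200.9 to 280.2 and 256.0 to 301.4 CPM). Those of macrophages (55.87 to 83.82 and 40.94 to 58.36 CPM) and the thick ascending limb (1471 to 1910 and 1247 to 1647 CPM) lay lower with some overlap. Rmrp, the RNA of RNase MRP, was at 910.4 to 1012 CPM in WT and 1133 to 1457 CPM in Akita mice, without overlap, and the share of mitochondrial rRNA was 15.1 to 17.8% and 15.8 to 23.6%. The part of these in the result was not tested. In whole cortex, fewer cells of a type and less RNA per cell cannot be told apart.

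**Figure D2:**
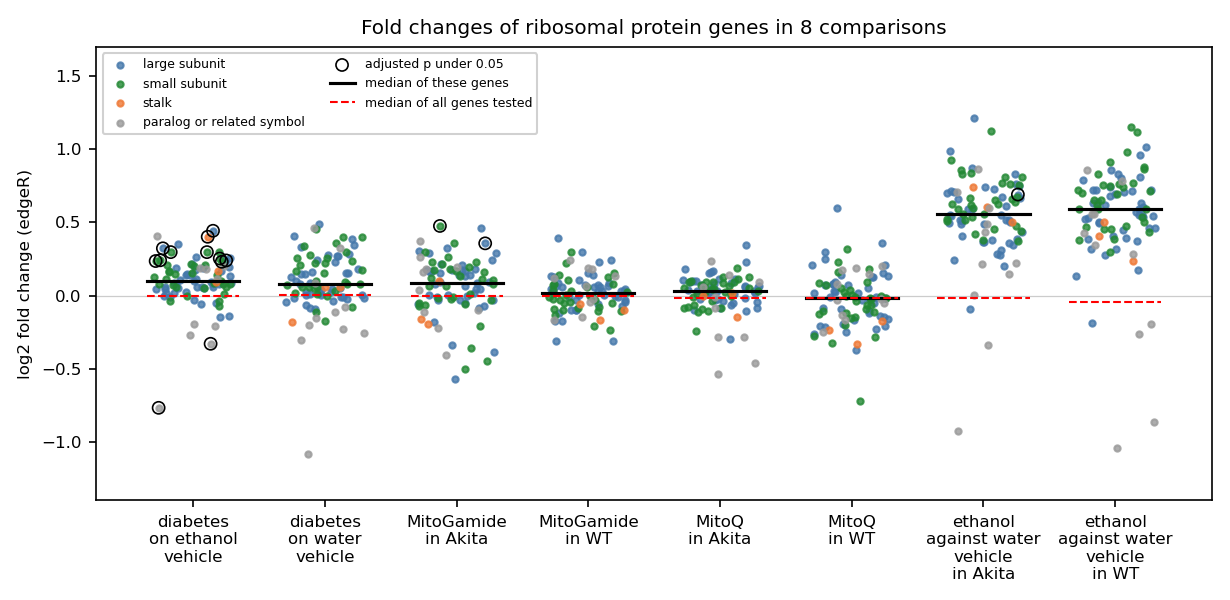
Log2 fold change (edgeR) of each tested ribosomal protein gene in 8 comparisons, coloured by class, with circles around called genes, black bars for the median of these genes and red dashes for that of all genes. The medians were 0.10 for diabetes on ethanol vehicle and 0.56 for ethanol against water vehicle in Akita mice.

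The smallest adjusted p belonged to a stalk gene. Rplp1 (chr9:61913284-61914542, minus strand), an acidic protein of the stalk, measured 135.4, 153.9, 148.3, 139.8 and 136.7 CPM in WT and 207.1, 212.4, 189.5, 164.5 and 159.2 CPM in Akita mice. All Akita mice lay above all WT mice, and the log2 fold change was 0.40 ± 0.09 (SE, n = 5, edgeR adjusted p = 0.00619). Rplp0, the base of the stalk, was at 0.17 ± 0.07 (edgeR adjusted p = 0.12), and Rplp2, the partner of Rplp1, at 0.09 ± 0.08 (edgeR adjusted p = 0.462). Rplp2 measured 51.19 to 64.74 CPM in WT and 55.9 to 68.13 CPM in Akita mice, so that the groups overlapped along most of their range.

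In the small subunit, Rps29, a zinc-binding protein, measured 67.65, 76.68, 68.19, 65.02 and 67.8 CPM in WT and 89.64, 91.5, 84.46, 78.87 and 75.06 CPM in Akita mice. The groups overlapped only through WT mouse 2 and Akita mouse 5, and the log2 fold change was 0.30 ± 0.07 (edgeR adjusted p = 0.00975). Rps15, a protein near the decoding site, was at 107.1 to 122.2 CPM in WT and 124.1 to 147.6 CPM in Akita mice, without overlap (0.23 ± 0.07, edgeR adjusted p = 0.0289). Rps2, at the mRNA entry channel, rose by 0.25, Rps21 by 0.30, Rps13 by 0.24 and Rps28 by 0.24. Rpsa, known also as the laminin receptor, was at 223.1 to 255.9 CPM in WT and 244.3 to 290.2 CPM in Akita mice, at 0.21 ± 0.07 (edgeR adjusted p = 0.0572). Rps6, the S6 kinase substrate, was at -0.03 ± 0.07 (edgeR adjusted p = 0.784).

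In the large subunit, Rpl36 measured 47.08, 46.74, 47.71, 45.83 and 40.98 CPM in WT and 61.59, 63.82, 56.21, 49.93 and 50.7 CPM in Akita mice. The groups did not overlap, and the log2 fold change was 0.32 ± 0.08 (edgeR adjusted p = 0.0122). Rpl27 rose by 0.44 ± 0.11 (edgeR adjusted p = 0.0129), which fell to 0.17 with an adjusted p of 0.0641 when counts of its named pseudogenes were added. Rpl37a rose by 0.24.

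Both genes that fell were related symbols. Rps19bp1, whose product binds Rps19 and SIRT1, measured 7.367, 7.004, 7.558, 6.338 and 7.152 CPM in WT and 5.317, 5.619, 5.226, 5.923 and 5.769 CPM in Akita mice. The groups did not overlap (-0.33 ± 0.09, edgeR adjusted p = 0.0207). Rpl3l was at -0.77 ± 0.25 (edgeR adjusted p = 0.0489), from 0.96 to 1.96 CPM in WT and 0.75 to 1.05 CPM in Akita mice. Its call was lost without a filter and with the replicate number as a block (edgeR adjusted p = 0.083 and 0.0548). That of Rps19bp1 was lost under both too (edgeR adjusted p = 0.069 and 0.0603). Rpl36al, a paralog of Rpl36a, was at -0.21 ± 0.07 (edgeR adjusted p = 0.0535), and Rps27l, a p53-induced paralog of Rps27, at 0.19 ± 0.08 (edgeR adjusted p = 0.103).

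Fau, made as a fusion with a ubiquitin-like sequence, was at 0.20 ± 0.07 (edgeR adjusted p = 0.0578), and Rps27a, made as a fusion with ubiquitin, at -0.002 ± 0.09 (edgeR adjusted p = 0.991), a value whose sign turned with the processing. The count of 12 fell to 5 without Akita vehicle library 1 (12.6% of all genes), 6 without Akita vehicle library 2 (12.2%) and 7 without either Akita vehicle library 3 (14.1%) or WT vehicle library 4 (13.5%), and Rplp1, Rps29, Rpl36 and Rpl27 were called without any single library. The other calls were lost without some single libraries, with Rps19bp1 called in 8 of the 10 fits that leave 1 out, Rps13 in 6, Rps28 in 5, Rps15 and Rps2 in 4, Rps21 and Rpl37a in 3 and Rpl3l in 2. A length offset ended the calls of Rps13, Rps28, Rps15, Rps21 and Rpl37a (edgeR adjusted p = 0.0575, 0.104, 0.0792, 0.113 and 0.0911). Adding pseudogenes also ended that of Rps13 (edgeR adjusted p = 0.0654). With all 40 libraries in one edgeR fit none of Rplp1, Rps29, Rpl36 and Rpl27 was called (adjusted p = 0.525, 0.816, 0.545 and 0.41), and the 1 member called, against 4.75% of genes, was lower.

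Outside the ribosome, calls went both ways, beside the 16.4% of all genes called. Of 54 translation factors 2 rose and 6 fell, with Eif6, an anti-association factor of the large subunit, at 0.49 ± 0.07 and Eif4g3, a cap-complex scaffold, at -0.43 ± 0.07. Of 105 genes of ribosome assembly 3 rose and 7 fell, with Utp20 at 0.74 and Mdn1 at -0.40. Of 83 mitochondrial ribosomal proteins 1 rose and 3 fell. Of 10 other genes of the TOP class (hosts of small nucleolar RNAs, similar non-coding genes and the ribosome-bound scaffold Rack1), Snhg1 rose by 0.46 and all 10 were above 0, as were 49.7% of all genes. Of 35 genes of mTORC1 and signalling to the ribosome 4 rose and 2 fell, with Pdcd4, an inhibitor of Eif4a, at 0.49 and Rps6ka1, an S6 kinase, at 0.40.

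On the water vehicle no member was called with diabetes by edgeR (0 of 89, against 0.552% of 18304 genes) or by DESeq2, against 1.93% of genes, and 1 member, Rpl3l, had an unadjusted p under 0.05, against 7.56% of genes. The member median was 0.08, and turned to -0.04 with library totals in place of TMM, which moved the median of all genes to -0.133. With single libraries left out it ranged from -0.12, without Akita water library 1, to 0.29, without WT water library 1 or 5. Rpl3l was at -1.08 ± 0.39 (edgeR adjusted p = 0.418), and next in order of p were Rps4l at -0.26, Rpl21 at 0.49 and Rpl12 at 0.24.

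**Figure D3:**
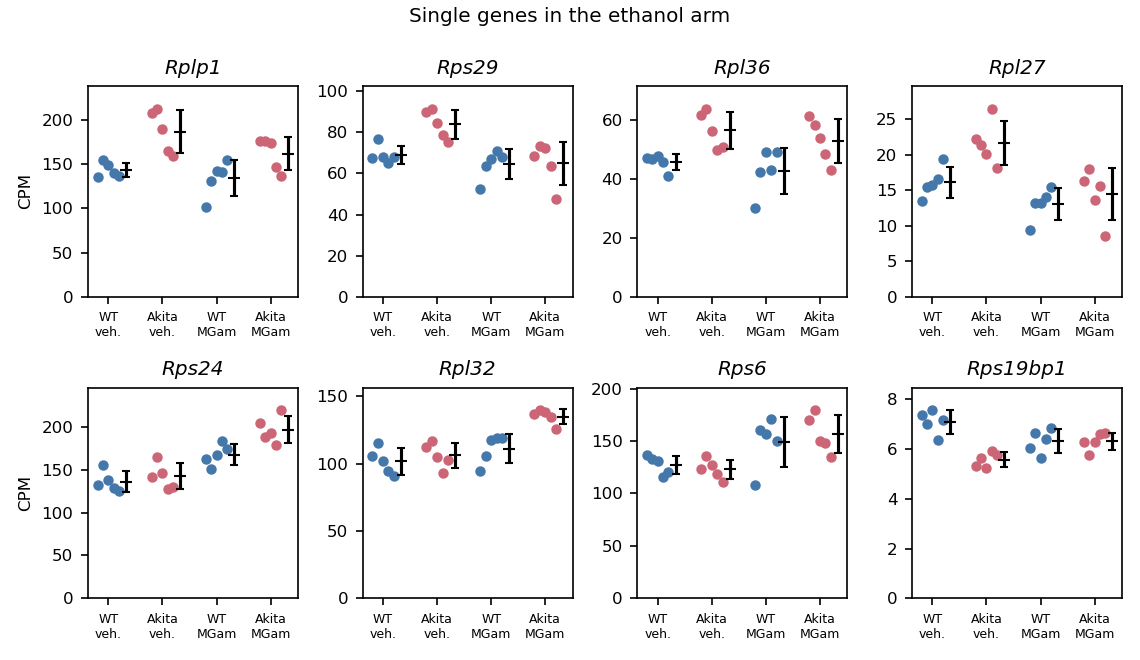
Level (CPM) of 8 genes in each library of the ethanol arm, blue for WT and red for Akita mice, with bars for the mean ± SD (n = 5), where veh. is vehicle and MGam is MitoGamide. Rplp1 lay higher in all Akita than in all WT vehicle mice, and Rps24 higher in all Akita mice on MitoGamide than in all Akita vehicle mice.

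With MitoGamide in Akita mice, 2 of 88 members were called, both higher, against 1.26% of 17051 genes, and by DESeq2 12 of 88, against 5.99% of genes. The member median was 0.09 with TMM and turned to -0.05 with library totals, under which the median of all genes moved to -0.145. Groups did not overlap for 10 members, 8 higher and 2 lower, against 7.5% of all genes. An unadjusted p under 0.05 was found for 29 of 88 members and 20.9% of all genes. The proximal tubule markers summed to 14030 to 18070 CPM on vehicle and 9321 to 17690 CPM on MitoGamide. The endothelium markers were higher without overlap (217.2 to 246.5 CPM on vehicle, 255.4 to 369.7 CPM on MitoGamide). The share of mitochondrial rRNA was 15.8 to 23.6% and 22.4 to 27.2%, and Rmrp was at 1133 to 1457 CPM and 361.2 to 1199 CPM. The part of these in the result was not tested.

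Rps24 (chr14:24487125-24496959, plus strand), a small-subunit protein needed for processing the 18S rRNA precursor, measured 141.9, 165.1, 146.5, 127.3 and 129.8 CPM on vehicle and 204.9, 187.9, 192.8, 178.5 and 219.5 CPM on MitoGamide. The groups did not overlap, and the log2 fold change was 0.48 ± 0.08 (edgeR adjusted p = 0.0299). Rpl32, of the large subunit, measured 112.4, 117.1, 104.9, 92.94 and 102.8 CPM on vehicle and 136.5, 139.7, 138.0, 134.7 and 125.6 CPM on MitoGamide. These groups did not overlap either (0.36 ± 0.08, edgeR adjusted p = 0.0466). Neither gene was called with all 40 libraries in one edgeR fit (adjusted p = 0.456 for Rps24 and 0.512 for Rpl32, with 0.18% of genes called) or with the replicate number as a block (adjusted p = 0.128 and 0.138, with 0.0% of genes called), and no member was called with library totals, against 1.33% of genes.

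Next in order of p and not called, Rpl26, a large-subunit protein, measured 146.0, 156.9, 142.3, 131.6 and 136.1 CPM on vehicle and 194.1, 170.0, 167.1, 162.4 and 194.7 CPM on MitoGamide (0.32 ± 0.07, edgeR adjusted p = 0.0552). Rps3a1, of the small subunit, measured 176.6 to 188.4 CPM on vehicle and 202.9 to 228.3 CPM on MitoGamide (0.26 ± 0.06, edgeR adjusted p = 0.0552). Neither gene's groups overlapped. Rps6 was at 0.36 ± 0.09 (edgeR adjusted p = 0.0647), from 110.8 to 135.6 CPM on vehicle and 135.2 to 179.5 CPM on MitoGamide, and its groups overlapped by these 2 end values. With its named pseudogenes added, Rps6 was at 0.40 (edgeR adjusted p = 0.027). Of 9 alternative fits (library totals not among them), Rps6 was called in 4, and Rpl26 and Rps3a1 in 3 each. The stalk genes were at 0.10 for Rplp0, -0.20 for Rplp1 and -0.16 for Rplp2, and none was called. Rps29 was at -0.36, without overlap, and Rps21 at -0.50, and neither was called. Without Akita MitoGamide library 5, which stood apart, 13 members were called, 12 higher and 1 lower, against 4.67% of genes. Without any 1 of the other 9 libraries the count was 0 or 1, against 0.0 to 1.24% of genes.

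Some genes shared their counts with pseudogenes. Named pseudogenes (320 of them, for 64 members) held over 25% of the joint counts of 8 members. Rpl27 (chr11:101442298-101445529, plus strand) was at -0.57 ± 0.17 with MitoGamide in Akita mice, and at -0.06 with its 3 pseudogenes added. Rps7 (chr12:28630854-28635953, minus strand) was at -0.45 ± 0.14 and turned to 0.36 (edgeR adjusted p = 0.0487) with its 3 pseudogenes added.

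Rps7 alone measured 70.16, 70.47, 61.02, 74.58 and 55.71 CPM on vehicle and 58.06, 56.54, 49.64, 44.67 and 33.01 CPM on MitoGamide. Its pseudogenes held 50.5% of the joint counts on vehicle and 71.4% on MitoGamide, and those of Rpl27 held 47.6% and 63.3%. Over the 8 members the median with MitoGamide in Akita mice moved from -0.03 to 0.14 when pseudogenes were added, and over the other 80 it was 0.10 both ways. Only pseudogenes with -ps in the symbol were counted, so the other 80 are not shown to be free of shared counts. For diabetes on the ethanol vehicle the median of the 8 fell from 0.20 to 0.06, and that of the other 80 from 0.10 to 0.09. Reads of a gene and its processed copy are near-identical, so which of both was transcribed cannot be told apart in these counts.

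**Figure D4:**
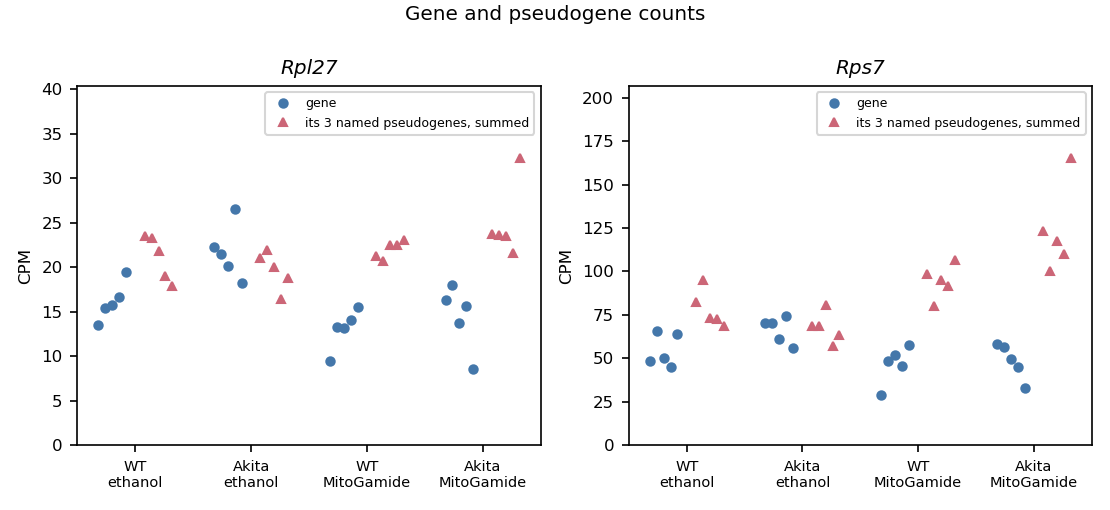
Level (CPM) of Rpl27 and Rps7 (circles) and the sum of the 3 named pseudogenes of each (triangles) in each library of the ethanol arm (n = 5 per group). For Rps7 the pseudogene sum was 57.3 to 80.5 CPM in Akita vehicle mice and 100.4 to 165.5 CPM in Akita mice on MitoGamide.

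Of the translation factors 4 of 54 rose with MitoGamide in Akita mice, where 1.26% of all genes were called, among them Eif2s2 at 0.46 and Eif2s1 at 0.37, subunits of the factor that brings the initiator tRNA, and 46 of 54 were above 0, against 49.6% of all genes. Each of the next 3 lists held 1 call. Abce1, a ribosome recycling factor, rose by 0.42 among 35 genes of mTORC1 and signalling to the ribosome, Mrpl32 by 0.49 among 83 mitochondrial ribosomal proteins, and Mphosph10, a factor of small-subunit assembly, by 0.55 among 105 genes of ribosome assembly. None of the 10 other TOP genes was called by edgeR, 2 had an unadjusted p under 0.05 and 1 was above 0. With the replicate number as a block, or without Akita vehicle library 1 or 2, 0 of all genes were called. The calls in these lists were thus lost there.

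In WT mice on MitoGamide no member was called by edgeR (0 of 88, against 0.0% of 17395 genes) or DESeq2 (against 0.287% of genes). An unadjusted p under 0.05 was found for 7 of 88 members, against 10.6% of genes. Rps24 was at 0.30 ± 0.07 (edgeR adjusted p = 0.307), from 124.9 to 155.8 CPM on vehicle and 150.5 to 183.4 CPM on MitoGamide. Next in order of p and not called were Rpl21 at 0.40, Rpl27a at 0.24 and Rpl23a at 0.23, all of the large subunit. No member was called for a difference of the MitoGamide effect between genotypes (0 of 88, against 0.0% of genes, both by edgeR and by DESeq2). At an unadjusted p under 0.05 there was 1 member, Rps19bp1, against 8.32% of genes. For Rps24 the difference of both effects was 0.18 (edgeR adjusted p = 0.668).

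With MitoQ no member was called in Akita mice (0 of 88, against 0.0% of 18496 genes, 1 at an unadjusted p under 0.05, against 1.96%) or in WT mice (0 of 89, against 0.0% of 17881 genes, 0 at an unadjusted p under 0.05, against 3.22%) by edgeR. DESeq2 called no member either, against 0.0% of genes in Akita and 0.0112% in WT mice. The genotype difference of the MitoQ effect was called for 0 of 89 members, against 0.0% of genes, both by edgeR and by DESeq2. An unadjusted p under 0.05 was found for 0 members, against 1.14% of genes. The member median was 0.03 in Akita and -0.02 in WT mice, and -0.45 and -0.38 without the libraries that stood apart. On the water vehicle, that omission left out the libraries with low member sums (2992 to 4880 CPM) and kept those at 8521 to 9611 CPM. The shift of these medians thus depends on that choice. The smallest p values belonged to Rpl37rt (-0.54), Rpl12 (-0.30), Rps4l (-0.29) and Rpl31 (0.35) in Akita mice and to Rpl21 (0.60), Rpl12 (-0.37), Rpl36a (0.36) and Rps4l (-0.25) in WT mice. With single libraries left out the member medians ranged from -0.20 to 0.24 and from -0.18 to 0.17. Library totals moved the median of all genes to 0.164 in Akita and -0.146 in WT mice, and to 0.317 for the genotype difference, and that of the members to 0.149, -0.098 and 0.265.

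Between the ethanol and the water vehicle, members lay mostly above 0. Without the libraries that stood apart, which left 2 of 5 water libraries in each genotype, the medians were 0.03 in Akita and 0.05 in WT mice. The water libraries left out had low member sums (2992 to 4880 CPM), and those kept lay at 8521 to 9611 CPM. The omission thus followed the member level, and these medians cannot test the difference between vehicles. In Akita mice the member median was 0.56, with 86 of 89 above 0, while that of all genes was -0.02. By edgeR 1 of 89 was called, against 12.7% of 17928 genes, and by DESeq2 24 of 89, against 23.8% of genes. Groups did not overlap for 3, against 10.3%. An unadjusted p under 0.05 was found for 47 of 89 members, all higher, and for 39.6% of all genes. In WT mice the median was 0.59, 0 of 89 were called by edgeR, against 0.0% of 18092 genes, 2 by DESeq2, against 4.01% of genes, 38 had an unadjusted p under 0.05, against 27.4% of genes, and groups did not overlap for 8, against 3.68%. The proximal tubule markers summed to 7314 to 15960 CPM in Akita mice on water, against 14030 to 18070 CPM on ethanol, and to 13110 to 26540 CPM in WT mice on water, against 23300 to 28150 CPM on ethanol. In Akita mice the distal convoluted tubule markers were higher on water without overlap (1555 to 2032 CPM, against 1230 to 1512 CPM on ethanol), and the endothelium markers lower without overlap (126.8 to 216.3 CPM, against 217.2 to 246.5 CPM). Rmrp was at 150.6 to 1082 CPM in Akita mice on water and 1133 to 1457 CPM on ethanol, without overlap, and the share of mitochondrial rRNA was 19.3 to 41.5% and 15.8 to 23.6%. The part of these in the result was not tested. The arms were separate sets of mice, so vehicle and arm cannot be told apart.

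Rpl18, of the large subunit, measured 107.4, 108.5, 95.97, 98.37 and 92.89 CPM in Akita mice on ethanol and 93.51, 39.02, 54.51, 77.88 and 48.99 CPM on water. Akita water mice 2, 3 and 5 were low, mouse 1 overlapped the ethanol group, and the log2 fold change was 0.69 ± 0.21 (edgeR adjusted p = 0.0463). Without Akita water library 1, 64 members were called (36.2% of all genes), and without library 4, 49 (34.5%). Without any 1 of the other 8 libraries no member was called, against 0.00552 to 6.59% of all genes, and without the libraries that stood apart Rpl18 was at 0.25 (edgeR adjusted p = 0.262). In WT mice 45 were called without WT water library 5 (28.6%). Next to Rpl18 in order of p and not called in Akita mice were Rpsa at 0.62, Rps15 at 0.64 and Rpl27 at 0.76, and the first in WT mice were Rpl36a at 0.72, Rpl21 at 0.83, Rps25 at 0.66 and Rpl22 at 0.86.

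The members moved together from library to library. Within groups, the correlation of a core gene with the sum of the other core genes had a median of 0.79 in the ethanol arm (20 libraries) and 0.97 in the water arm (20 libraries), and these values share library and scale. The highest library was a median of 1.59 times the lowest in the ethanol arm and 3.94 times in the water arm, and 39 of 78 core genes were lowest in WT MitoQ 3. Rpl41 ranged from 210.3 to 297.0 CPM over the ethanol arm except 1 WT MitoGamide mouse at 183.8 CPM, and from 30.42 CPM in WT water 3 to 260.8 CPM in Akita MitoQ 1 in the water arm. Its log2 fold change between vehicles in Akita mice was 1.21 ± 0.41 (edgeR adjusted p = 0.0629), without overlap.

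Rpl12, a large-subunit protein at the base of the stalk, did not follow the others in the water arm. Its correlation with the sum of the other core genes was -0.02 over 40 libraries, 0.33 in the ethanol and -0.11 in the water arm, and in the ethanol arm Rpl28 (0.17), Rps26 (0.19) and Rpl41 (0.30) were among those that lay lower still. It measured 4.589, 6.272, 6.297, 7.952 and 5.481 CPM in WT mice on water, where the 3 libraries with the lowest member sums, 2, 3 and 4, gave its 3 highest values. In WT mice on MitoQ the library with the lowest member sum, 3, gave its lowest value, 3.46 CPM against 4.535 to 5.712 CPM in the others. Between vehicles it was at -0.10 ± 0.14 in Akita mice (edgeR adjusted p = 0.62) and -0.19 ± 0.20 in WT mice (edgeR adjusted p = 0.508), beside member medians of 0.56 and 0.59. Its highest library was 2.57 times its lowest in the water arm.

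The summed level moved with several other measures of the libraries. For coding genes outside the members, the log2 level in a library was taken relative to the gene's mean over 40 libraries. The median of this over short genes (under 1000 bases) minus that over long genes (over 4000 bases) gave a length measure. The Pearson correlation of the summed level with the length measure was 0.95 over 40 libraries, 0.68 in the ethanol and 0.94 in the water arm, with Spearman's rho of 0.90, 0.61 and 0.89. With the sum of the mitochondrial ribosomal proteins it was 0.95, 0.68 and 0.95. With the share of mitochondrial rRNA it was -0.81, -0.15 and -0.85, with Rmrp 0.90, 0.71 and 0.92, and with Malat1, a nuclear non-coding RNA, -0.77, -0.22 and -0.70. With the median correlation with other libraries, which defined those that stood apart, it was 0.82, 0.34 and 0.84. All of these share library and depth. With an offset for transcript length the member median between vehicles was 0.56 in Akita and 0.57 in WT mice, and the part of the other measures in the results was not tested. Between vehicles in Akita mice, members under 600 bases had a median of 0.62 and other coding genes of that length 0.40, whereas at 1000 bases and over the medians were 0.56 and 0.06.

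**Figure D5:**
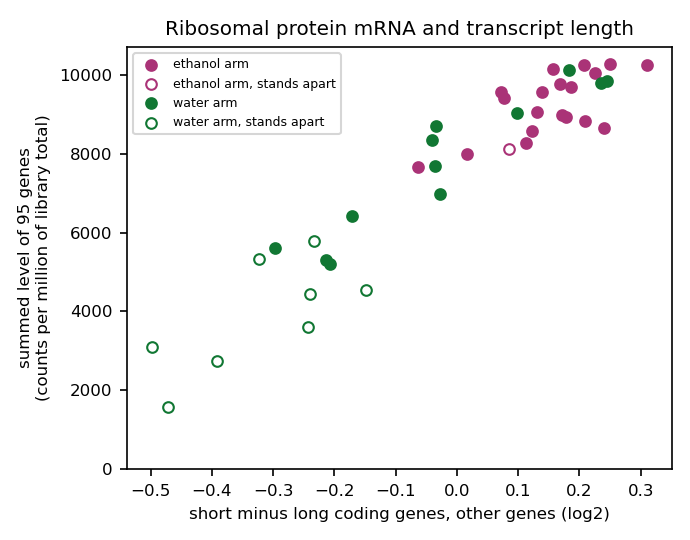
Summed level of the 95 genes (CPM of the library total) against the length measure, 1 point per library, purple for the ethanol and green for the water arm, with open circles for libraries that stood apart. The length measure is the median log2 level of short minus that of long coding genes outside the members, each gene taken relative to its mean over the libraries. Both measures rose together (Pearson's r = 0.95, n = 40).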

How the data were processed

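RNA of renal cortex from 40 mice was depleted of ribosomal RNA and sequenced. The authors trimmed reads with Skewer, assigned them to GENCODE mouse release 25 transcripts (GRCm38) with kallisto 0.46.1 and summed transcripts per gene. The deposited values are estimated counts as whole numbers, without scaling. Kallisto divides reads between near-identical sequences. Names, lengths and positions came from GENCODE release 21, which held 99.5% of the gene identifiers.

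Each comparison was fitted on its own libraries in R 4.3.3 with edgeR 4.0.16 (TMM, quasi-likelihood test), requiring a mean count of 10 or more per gene, with Benjamini-Hochberg adjustment over all genes and calls at an adjusted p under 0.05. Standard errors came from the fold change on the log2 scale and its F statistic. CPM of single genes, their pseudogenes and the summed level by group used TMM factors over all 40 libraries. Marker sums, Rmrp, Malat1 and the measures correlated with the summed level were scaled to the library total without TMM, as was the summed level in those correlations. Whether groups of these overlap on the TMM scale was not examined. TPM used the longest principal coding transcript, which understates genes with a long annotated form. No 2 libraries of a group agreed within sampling noise (80 pairs). On simulated counts for diabetes on the ethanol vehicle (17531 genes), 99% of 2-fold and 100% of 4-fold changes were recovered, and 15 calls (7.01%) were false. Smaller changes were not simulated.

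Members and gene lists were chosen with earlier results of these data known. Named were the 4 members with the smallest p per comparison, called members up to 10, and fixed genes (stalk, ubiquitin fusions, Rps6, Rpsa, highest and lowest levels, paralogs), of which the report prints those that bear on a result. Rpl37a, Rps7, Rps29 and Rps21 with MitoGamide, Rpl41 between vehicles, Rpl12's correlations and the pseudogene examples were named after their values were seen. Alternatives were DESeq2 1.42.0, RLE factors, library totals, 2 other filters, 1 fit of all 40 libraries, a replicate block, pseudogenes added, and each library left out. A length offset and omission of the libraries that stood apart were chosen after seeing the data.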

Additional observations from a re-analysis of the deposited data

Results flagged for a closer look

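Gaps within groups of 5 were examined for 16 genes and the summed level, 136 groups in all, of which 3 held a sample far from the others (gap over range above 0.71). Chance gives about 1 in 20, or 6.8. Rpl36 was at 40.98 CPM in replicate 5 of WT mice on the ethanol vehicle, with the others at 45.83 to 47.71 CPM. Rpl36 was at 14.71 CPM in replicate 3 of WT mice on MitoQ, with the others at 33.33 to 40.1 CPM. Rps29 was at 76.68 CPM in replicate 2 of WT mice on the ethanol vehicle, with the others at 65.02 to 68.19 CPM.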

How the results depend on the processing

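Called members with diabetes on the ethanol vehicle numbered 12, and 16 with DESeq2 (17.6% of all genes), 16 with at least 10 counts in every library (19.0%), 8 with a length offset (15.9%), 6 without a filter (6.95%), 1, which was lower, with all 40 libraries in one fit (4.75%), and 5 to 17 with single libraries left out. With library totals there were 4 (12.8%). For MitoGamide in Akita mice the 2 called became 12 with DESeq2 (5.99%), 1 without a filter (0.492%), 0 with all 40 libraries in one fit (0.18%), 5 with pseudogenes added (1.29%), 7 with a length offset (1.7%), 13 without the libraries that stood apart (4.67%), and 0 to 13 with single libraries left out, and 0 with library totals (1.33%), where the median turned to -0.049. For ethanol against water in Akita mice the 1 called became 24 with DESeq2 (23.8%), 0 without a filter (3.8%), 5 with all 40 libraries in one fit (14.7%), 2 with pseudogenes added (13.0%), 0 without the libraries that stood apart (0.0335%, median 0.033), 0 with library totals (1.03%), and 0 to 64 with single libraries left out. In WT mice the count of 0 became 2 with DESeq2 (4.01%), 4 with all 40 libraries in one fit (8.82%) and 0 to 45 with single libraries left out, and the median became 0.054 without the libraries that stood apart. In both genotypes that omission took out the water libraries with low member sums. The cause was not tested.

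Replicate numbers did not pair the samples, since correlations of same-numbered libraries were mixed (-0.005 to 0.079 for diabetes on the ethanol vehicle, -0.235 to 0.0938 for MitoGamide in Akita mice, and -0.571 to 0.75 over all 8 comparisons). With the replicate number as a block, 14 members were called for diabetes on the ethanol vehicle (14.5% of all genes), and 0 members and 0.0% of genes both for MitoGamide and for ethanol against water in Akita mice. For diabetes on the ethanol vehicle that block ended the calls of Rps19bp1, Rps21 and Rpl3l (edgeR adjusted p = 0.0603, 0.0577 and 0.0548).

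Signs turned for Rps7 with MitoGamide in Akita mice when pseudogenes were added (0.363), for Rpl31 with MitoQ in Akita mice (-0.187) and Rpl12 with MitoQ in WT mice (0.003) without the libraries that stood apart, and for Rps27a with diabetes on the ethanol vehicle, which was near 0 (0.001 without a filter, 0.003 with the replicate block, -0.055 to 0.053 with single libraries left out). The absence of a call does not show equal levels.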
